A study of Mus musculus with 4 samples.

Results

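Type I interferon-stimulated genes were followed in regulatory T cells (Tregs) from the liver of young mice that lack Altre (Altre-KO) or carry it (Altre-WT). Altre is a long non-coding RNA of Tregs, a CD4 T cell population that keeps immune responses in check. RNA-sequencing libraries numbered 2 per genotype. The labels give neither the age in weeks, the strain or the sex of the mice, nor how Altre was removed, nor do they state if replicate libraries are separate mice. The p-values below therefore measure only library-to-library spread, which may be technical. The genes were chosen by name, as 34 known interferon-stimulated genes, and all 34 were among the 24452 genes that the deposited table lists by symbols in capitals, such as IRF7, RTP4, OAS3, RSAD2, ISG15 and IFIT1. Of these, 32 passed the filter on low values, and Oas2 and Ifi44 did not. The level of the Altre transcript itself was not analysed here, so the genotypes are as labelled.

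Type I interferons are alerting proteins that a cell releases on sensing viral or misplaced nucleic acid. They bind the receptor made of Ifnar1 and Ifnar2, whose kinases Jak1 and Tyk2 activate transcription factors of the STAT family, Stat2 among them. The complex that Stat2 and Irf9 help to form binds the interferon-stimulated response element (ISRE) and induces a large set of genes that block virus entry, transcription, translation or assembly. Low tonic interferon signalling keeps part of this set transcribed in resting lymphocytes, and strong interferon signalling is known to restrain Tregs.

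Levels are given in CPM, the authors' reads scaled to listed genes only, with an equal sum in every library. A single read was worth 0.306 and 0.423 CPM in the 2 Altre-KO libraries and 0.547 and 0.42 CPM in the 2 Altre-WT libraries, and estimated reads on the 34 genes summed to 8158 and 5606 in Altre-KO and to 4734 and 6406 in Altre-WT. The share of each library's reads that lay on listed genes was 32.8% and 21.5% in Altre-KO and 18.8% and 20.6% in Altre-WT. The 9 Treg markers, with Cd4, Foxp3, Il2ra and Ikzf2 among them, summed to 3640 and 3566 CPM in Altre-KO and to 3567 and 3647 CPM in Altre-WT. Foxp3, the factor that defines Tregs, was at 79.5 and 162.4 CPM in Altre-KO and at 160.4 and 140.4 CPM in Altre-WT, so that Altre-KO replicate 1 alone was low, and its estimated reads were fractional. The 2 CD8 T cell markers summed to 6.13 and 5.08 CPM in Altre-KO and to 7.11 and 9.25 CPM in Altre-WT, nearly all of it Cd8b1, with Cd8a at or under 0.42 CPM. The 4 hepatocyte markers summed to 0 and 1.69 CPM in Altre-KO and to 1.09 and 0.84 CPM in Altre-WT, with Alb and Ttr listed at 0 throughout. The 4 endothelial markers summed to 175.1 and 209.6 CPM in Altre-KO and to 180.4 and 220.7 CPM in Altre-WT, nearly all of it Pecam1. Of the sinusoidal endothelial genes among them, Stab2 was at 0.92 and 1.27 CPM in Altre-KO and at 6.02 and 5.04 CPM in Altre-WT (log2 fold change -1.64, limma adjusted p = 0.999), and Clec4g was at 0 CPM in both Altre-KO libraries and at 1.09 and 0.42 CPM in Altre-WT. The part of such cells in the results below was not tested. Macrophage and monocyte transcripts were present in every library, at sums given beside the results they touch. In bulk RNA, fewer cells of a type and less RNA per cell cannot be told apart.

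The ISRE is the element that the complex with Stat2 and Irf9 binds. Its core, GAAANNGAAA, was searched on both strands of RefSeq promoters (GRCm38.p6). The window ran from 250 bases before to 50 bases after each annotated start, with overlapping matches counted. Promoters were at hand for 25 of the 34 genes. A match was present for 13 of these 25 (52%), against 1079 of all 27025 genes with a promoter (3.99%). The GAS element, TTCNNNGAA, known from interferon-gamma responses, was present for 5 of the 25 (20%), against 2582 of the 27025 genes (9.55%). The stretches below show where the core lies in 7 genes of different roles that the results return to. They are written 5′ to 3′ in the direction of the gene, with the matches in capitals. In Ifit1 and Rsad2 the core reads on the opposite strand, and in Isg15, Oas1a and Bst2 neighbouring matches overlap.
Isg15: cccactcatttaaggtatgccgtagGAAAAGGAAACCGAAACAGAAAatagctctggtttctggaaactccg
Ifit1: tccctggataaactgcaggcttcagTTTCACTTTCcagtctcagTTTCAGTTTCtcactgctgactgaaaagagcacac
Oas1a: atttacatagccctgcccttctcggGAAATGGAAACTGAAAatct
Oas3: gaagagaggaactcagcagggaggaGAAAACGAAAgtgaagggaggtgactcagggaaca
Rsad2: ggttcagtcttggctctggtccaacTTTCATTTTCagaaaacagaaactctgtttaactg
Bst2: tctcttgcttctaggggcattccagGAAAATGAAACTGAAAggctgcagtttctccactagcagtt
Ddx60: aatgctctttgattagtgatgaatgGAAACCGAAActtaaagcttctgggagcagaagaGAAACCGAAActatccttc

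These stretches lie at chr4:156200850-156200921 on the minus strand for Isg15, chr19:34640760-34640838 on the plus strand for Ifit1, chr5:120907526-120907570 on the minus strand for Oas1a and chr5:120777700-120777759 on the minus strand for Oas3. The others lie at chr12:26456538-26456597 on the minus strand for Rsad2, chr8:71537562-71537627 on the minus strand for Bst2 and chr8:61928009-61928086 on the plus strand for Ddx60. In Isg15 the 3 overlapping matches begin 78, 72 and 66 bases before the start, and in Ddx60 the 2 matches begin 53 and 19 bases before it. A match is a description of the letters and does not show binding in these cells. The plot of match positions shows that most lie before the start, and that those of Ddx58 and Ifih1, and the match at 1 of the 2 starts of Trim30a, lie after it.

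**Figure D1:**
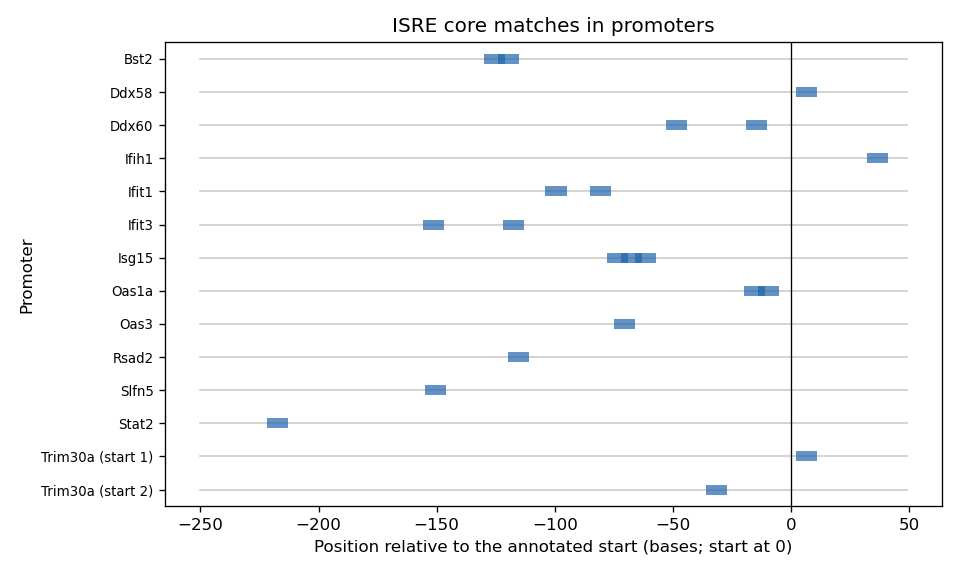
ISRE core matches (blue bars, 10 bases each) along the promoters of the 13 genes that hold one, plotted by position in bases relative to the annotated start (vertical line at 0); grey lines span the window searched, and Trim30a has 2 annotated starts. The 3 overlapping matches of Isg15 begin at 78, 72 and 66 bases before the start.

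Between genotypes, no interferon-stimulated gene passed the test. Of the 32 tested, 25 were lower in Altre-KO than in Altre-WT and 7 higher, and the median log2 fold change was -0.14. The same figures over all 10486 tested genes were 52.1% lower and a median of -0.013. By limma on log2(CPM + 1), with Benjamini-Hochberg adjustment across the 10486 genes, 0 of the 32 reached an adjusted p of 0.05 as lower, where 0.0381% of all tested genes did, and 0 as higher, where 0% of all tested genes did. All 32 had an adjusted p of 0.999. At an unadjusted p under 0.05, Rtp4 and Irf7 (2 of 32) were lower, where 2.22% of all tested genes were lower and 1.44% higher. Limma-voom on estimated reads called 0 of the 32, and the authors' deposited table puts 0 of the 34 under an adjusted p of 0.05, with a lowest unadjusted p of 0.21 for Rtp4.

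Libraries of the genotypes separated in 1 direction only. In 11 of the 32 genes (34.4%) both Altre-KO libraries lay below both Altre-WT libraries, where 16.1% of all tested genes did so, and in 0 of the 32 did both lie above, where 14.7% of all tested genes did. The 11 were Irf7, Zbp1, Ifit1, Oas1a, Oas3, Oasl2, Rsad2, Slfn5, Parp14, Ifi27l2a and Rtp4. Summed over the 34 genes, the level was 2498 and 2373 CPM in Altre-KO and 2589 and 2693 CPM in Altre-WT. The mean sum differed by -7.77% (Altre-KO relative to Altre-WT), and the spread between replicates (SD) was 3.07% of the Altre-WT mean. Since the genes were chosen with earlier results of these data known, no test of the list as a whole is given.

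**Figure D2:**
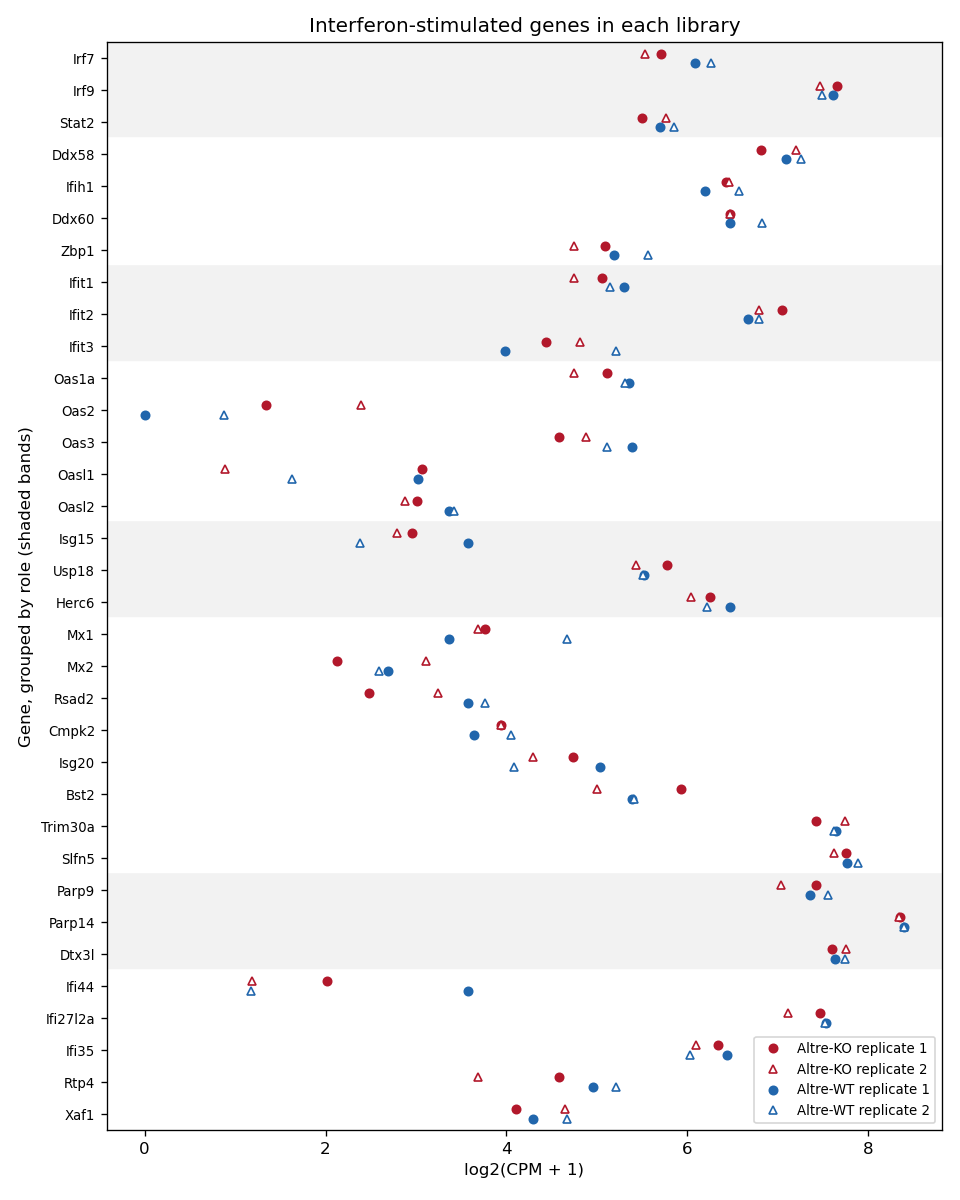
Level of each of the 34 genes in each library as log2(CPM + 1), grouped by role in shaded bands, with Altre-KO in red above Altre-WT in blue and replicate 1 filled, replicate 2 open. Irf7, Oas3, Rsad2 and Rtp4 show both red points left of both blue points, while Irf9, Ifih1 and Dtx3l overlap.

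Of the 3 signalling and transcription factor genes, Irf7 had the lowest log2 fold change, and none passed. Irf7, the transcription factor that amplifies interferon-alpha production and the response to it, was at 51.1 and 45.3 CPM in Altre-KO and at 66.7 and 75.7 CPM in Altre-WT. The Altre-KO libraries were both lower and did not overlap with Altre-WT, with a log2 fold change of -0.55 (SE 0.22, 95% interval -1.01 to -0.10, limma adjusted p = 0.999). Irf9, the DNA-binding partner of Stat2, was at 199.9 and 175.3 CPM in Altre-KO and at 194.7 and 178.2 CPM in Altre-WT. Stat2 was at 44.1 and 53.4 CPM in Altre-KO and at 50.9 and 56.8 CPM in Altre-WT, with a log2 fold change of -0.14 (95% interval -0.62 to 0.33). For Irf9 and Stat2 the genotypes overlapped. No ISRE core match was present in the promoter windows of Irf7 and Irf9, and 1 was present in that of Stat2.

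Among the nucleic acid sensors, Zbp1 differed most. Zbp1, which detects left-handed nucleic acid and can start inflammatory cell death, was at 33.1 and 25.8 CPM in Altre-KO and at 35.5 and 46.2 CPM in Altre-WT (log2 fold change -0.46, SE 0.27, limma adjusted p = 0.999). Ddx58, which encodes the RNA sensor RIG-I, was at 111.1 and 146.1 CPM in Altre-KO and at 135.6 and 152.2 CPM in Altre-WT. Ifih1, which encodes the long double-stranded RNA sensor MDA5, was at 84.8 and 87.2 CPM in Altre-KO and at 72.2 and 93.7 CPM in Altre-WT. These 2 sensors overlapped between genotypes, with log2 fold changes of -0.17 for Ddx58 and 0.063 for Ifih1. Ddx60, a helicase of the same branch, was at 87.6 and 88.1 CPM in Altre-KO and at 87.5 and 112.2 CPM in Altre-WT, where a single library stood high.

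The IFIT genes, whose products bind foreign RNA and block its translation, sit together on chromosome 19, and none of the 3 passed. Ifit1 (34640871 to 34650009 in GRCm38, as all coordinates here) was at 32.1 and 25.8 CPM in Altre-KO and at 38.3 and 34.5 CPM in Altre-WT, with no overlap (log2 fold change -0.32, 95% interval -0.89 to 0.25). Its neighbour Ifit2 (34550694 to 34576419) was at 130.7 and 110.1 CPM in Altre-KO and at 100.6 and 110.1 CPM in Altre-WT, with the highest log2 fold change of the 32 genes, 0.19 (95% interval -0.19 to 0.56). Ifit3 was at 20.7 and 27.2 CPM in Altre-KO and at 14.9 and 36.0 CPM in Altre-WT, so that the Altre-WT libraries enclosed the Altre-KO ones. The Ifit3 transcript is 97.8% identical to that of Ifit3b over 1700 of 1745 bases, and its estimated reads were fractional, so its value is uncertain.

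Active members of the OAS family, but not all members, make the 2-5A messenger that switches on the RNA-degrading enzyme RNase L. All 4 tested OAS genes of the 34 were lower in Altre-KO, where 52.1% of all tested genes were lower. Of these 4, 3 did not overlap, where 16.1% of all tested genes lay lower without overlap. Among OAS genes outside the 34, Oas1b (log2 fold change -0.16) and Oas1c (0.06) overlapped between genotypes. Oas3 was at 23.0 and 28.4 CPM in Altre-KO and at 41.0 and 33.6 CPM in Altre-WT (log2 fold change -0.52, SE 0.28, limma adjusted p = 0.999). Oas1a was at 33.7 and 25.8 CPM in Altre-KO and at 39.9 and 38.6 CPM in Altre-WT (log2 fold change -0.40), and Oasl2 at 7.04 and 6.35 CPM against 9.30 and 9.67 CPM (-0.45). Oas1a, Oas2 and Oas3 lie close together on chromosome 5, and Oasl1 and Oasl2 form another pair there. Oasl1, which in mouse restrains translation of Irf7, split by replicate number, with 7.35 and 0.85 CPM in Altre-KO and 7.11 and 2.10 CPM in Altre-WT. Oas2, under the filter, was at 1.53 and 4.23 CPM in Altre-KO and at 0 and 0.84 CPM in Altre-WT, that is 5 and 10 estimated reads against 0 and 2. Oas2 was thus the 1 OAS gene with both Altre-KO libraries above both Altre-WT libraries, on very few reads. The Oas1a transcript is 97.6% identical to that of Oas1g over 1861 of 1885 bases, and Oas1g was listed at 0 CPM in 3 libraries and at 0.46 CPM in Altre-WT replicate 2.

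ISG15 is a ubiquitin-like protein that is attached to other proteins, in mouse mainly by the ligase Herc6, and removed by Usp18. Isg15 itself was low, at 6.74 and 5.93 CPM in Altre-KO and at 10.9 and 4.2 CPM in Altre-WT, or 10 to 22 estimated reads per library. Its promoter holds 3 ISRE core matches, the most among those printed above, and its log2 fold change of -0.11 has a wide 95% interval (-1.22 to 1.01). The Isg15 transcript is 95.2% identical to that of AC151275.1 over 482 of 756 bases. Usp18, which also blocks signalling at Ifnar2, was at 53.6 and 42.3 CPM in Altre-KO and at 44.8 and 44.6 CPM in Altre-WT. Herc6 was at 75.0 and 64.8 CPM in Altre-KO and at 88.0 and 73.1 CPM in Altre-WT (log2 fold change -0.20). In all 3 genes the genotypes overlapped.

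Among genes that restrict viruses directly, Rsad2 had the lowest log2 fold change. Rsad2, which encodes viperin, a maker of a chain-terminating nucleotide, was at 4.59 and 8.47 CPM in Altre-KO and at 10.9 and 12.6 CPM in Altre-WT (log2 fold change -0.81, SE 0.47, 95% interval -1.79 to 0.17, limma adjusted p = 0.999). These values rest on 15 and 20 estimated reads in Altre-KO and 20 and 30 in Altre-WT. Cmpk2, a nucleotide kinase gene that lies next to Rsad2 on chromosome 12 and points away from it, was at 14.4 CPM in both Altre-KO libraries and at 11.5 and 15.6 CPM in Altre-WT. The other tested genes of this role had log2 fold changes between -0.29 (Mx1) and 0.061 (Bst2). They include the exonuclease gene Isg20 (-0.041), Trim30a (-0.051), a ubiquitin ligase gene that in mouse dampens Toll-like receptor signalling, and the Schlafen gene Slfn5 (-0.14). Slfn5 did not overlap, at 214.6 and 195.6 CPM in Altre-KO and 216.5 and 236.2 CPM in Altre-WT.

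Mx1 and Bst2 were chosen for full values after these were seen, since in each a single library stood apart. Mx1, a dynamin-like GTPase gene, was at 12.6 and 11.9 CPM in Altre-KO and at 9.30 and 24.4 CPM in Altre-WT. RefSeq annotates Mx1 and Mx2 as transcribed pseudogenes in the reference mouse genome. GENCODE M21, used here, lists Mx1 as protein coding and Mx2 as a polymorphic pseudogene. The Mx1 transcript is 94.8% identical to that of Mx2 over 920 of 3385 bases. Bst2, which encodes tetherin, a tether of budding virions, was at 60.0 and 30.9 CPM in Altre-KO and at 41.0 and 41.6 CPM in Altre-WT. Without Altre-KO replicate 1 the log2 fold change of Bst2 was -0.41, and without replicate 2 it was 0.53. The 11 macrophage and monocyte markers, led by Lyz2, summed to 323.9 and 189.7 CPM in Altre-KO and to 217.1 and 319.5 CPM in Altre-WT, with Lyz2 alone at 165.0 and 66.0 CPM in Altre-KO and at 102.3 and 154.7 CPM in Altre-WT. Bst2 in Altre-KO and Mx1 in Altre-WT were thus highest in the library of their genotype with the higher marker sum. In the other genotype each gene was nearly level between replicates, while the marker sum was not. The part of these cells in the levels was not tested.

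Parp14, Parp9 and Dtx3l form a neighbourhood on chromosome 16, and Parp14 and Dtx3l were nearly level between genotypes. Parp9 and Dtx3l encode a complex of an ADP-ribosyltransferase relative and a ubiquitin ligase, and Parp14 encodes a mono-ADP-ribosyltransferase. Parp14, with 614 to 1067 estimated reads per library, was at 326.7 and 323.9 CPM in Altre-KO and at 335.7 and 335.4 CPM in Altre-WT. It had the narrowest 95% interval of the 32 genes (-0.35 to 0.26), and its libraries separated at a mean difference of 1.03-fold. Parp9 was at 170.6 and 129.8 CPM in Altre-KO and at 162.7 and 186.5 CPM in Altre-WT (log2 fold change -0.23), and Dtx3l at 192.8 and 214.0 CPM against 197.1 and 212.4 CPM (-0.01). Parp9 and Dtx3l share 458 exonic bases on opposite strands and had fractional estimated reads. Whether strand was used in counting is not given in the sources used here, so reads in that stretch cannot be assigned.

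Rtp4 had the lowest log2 fold change and the smallest p of the 32 genes. Rtp4, a receptor transporter gene induced by interferon, was at 23.0 and 11.9 CPM in Altre-KO and at 30.1 and 36.1 CPM in Altre-WT. The log2 fold change was -0.95 (SE 0.34, 95% interval -1.65 to -0.25, limma adjusted p = 0.999), and it was -0.50 without Altre-KO replicate 2 and -1.40 without Altre-KO replicate 1. Its place by unadjusted p among the 10486 tested genes was 55, and that of Irf7 was 134. Ifi27l2a, a small interferon-induced membrane protein gene, was at 176.3 and 137.6 CPM in Altre-KO and at 184.3 and 182.8 CPM in Altre-WT (log2 fold change -0.24). Ifi35, whose product pairs with Nmi, was at 80.2 and 67.3 CPM in Altre-KO and at 85.8 and 64.3 CPM in Altre-WT, and Xaf1, which encodes an antagonist of the apoptosis inhibitor XIAP, at 16.2 and 24.1 CPM against 18.6 and 24.4 CPM. Both overlapped between genotypes. Ifi44, under the filter, was at 3.06 and 1.27 CPM in Altre-KO and at 10.9 and 1.26 CPM in Altre-WT, so its Altre-WT mean rested on replicate 1.

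**Figure D3:**
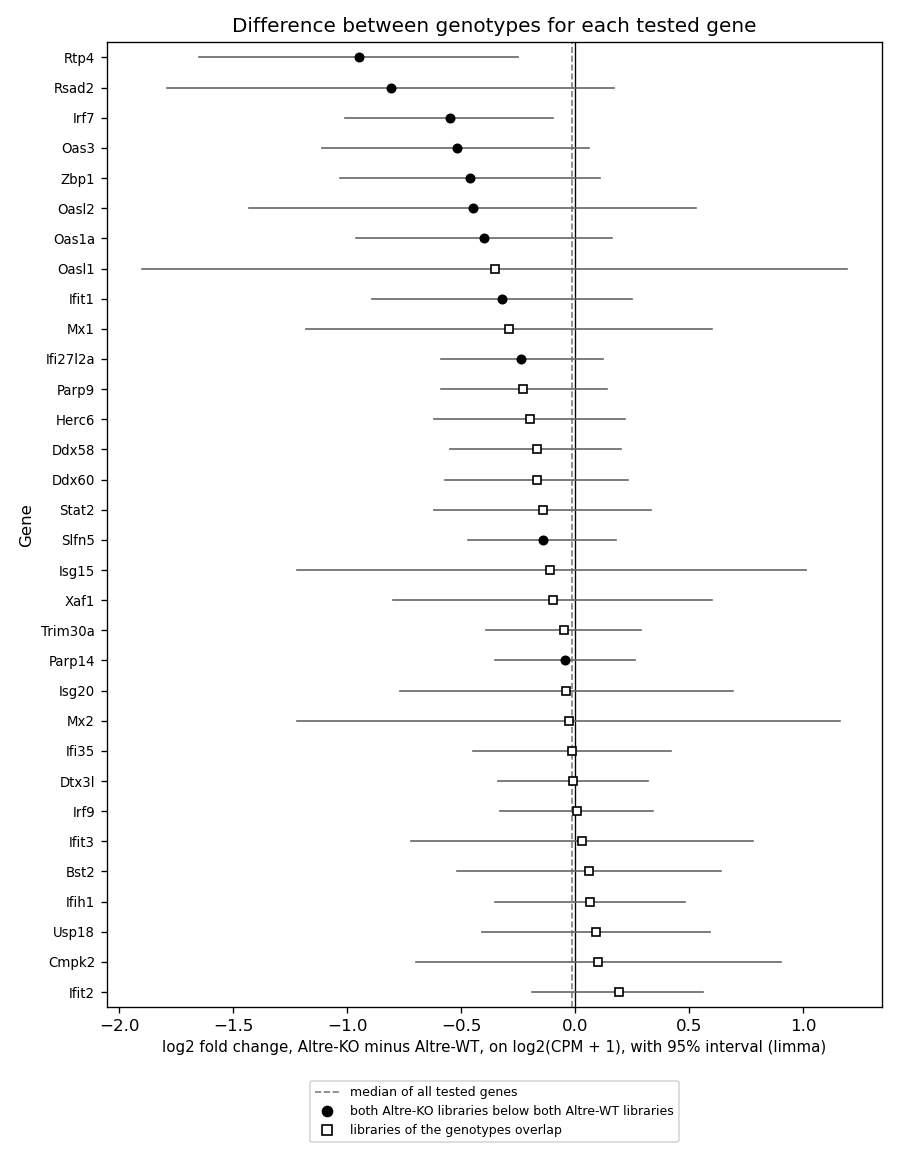
Log2 fold change (Altre-KO minus Altre-WT, on log2(CPM + 1)) of each of the 32 tested genes with its 95% interval from limma, sorted; filled circles mark the 11 genes whose Altre-KO libraries both lay below both Altre-WT libraries, and the dashed line is the median of all tested genes (-0.013). The points run from -0.95 for Rtp4 to 0.19 for Ifit2, and the intervals of Rtp4 and Irf7 lie wholly below 0.

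Per length, the set spanned a wide range of levels in these Tregs. On CPM per kilobase of annotated exon (GENCODE M21), mean levels were highest for Ifi27l2a, at 339 in Altre-KO and 396.5 in Altre-WT. Bst2 followed at 50.3 in Altre-KO and 45.7 in Altre-WT, Trim30a at 46.6 and 48.0, and Ifi35 at 42.7 and 43.5 in the same order. Libraries of these 3 overlapped on that scale, except that Trim30a lay above Bst2 in both Altre-WT libraries. Isg15 was at 8.38 in Altre-KO and 10 in Altre-WT. At the low end were Rsad2 at 1.51 in Altre-KO and 2.72 in Altre-WT, Oasl1 at 1.57 and 1.77, and Mx2 at 1.52 and 1.45. Oasl2 was at 1.05 and 1.49 in the same order, and under the filter Ifi44 was at 0.353 and 0.995 and Oas2 at 0.647 and 0.0944. Exon length takes in all annotated isoforms, so these per-length levels are approximate. The Ifi27l2a transcript is 90.7% identical to that of Ifi27l2b over 236 of 463 bases. That of Trim30a, a gene with fractional estimated reads, is 90.1% identical to that of Trim30d over 1719 of 3771 bases.

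Library by library, Altre-KO replicate 2 was the lowest of the 4 libraries for 15 of the 32 genes, where it was lowest for 27.7% of all tested genes. Within Altre-KO, 20 of 32 genes were higher in replicate 1 than in replicate 2, with a median log2 difference of 0.15, against 56.0% of all tested genes and a median of 0.057. Within Altre-WT, 14 of 32 were higher in replicate 1 than in replicate 2, with a median log2 difference of -0.079, against 47.6% of all tested genes and a median of -0.018. The median difference between the Altre-KO replicates was thus close in size to that between genotypes. Altre-KO replicate 2 also had the lowest macrophage and monocyte marker sum, and Altre-KO replicate 1 had the highest. The 34-gene sums of both Altre-KO libraries lay below those of both Altre-WT libraries.

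**Figure D4:**
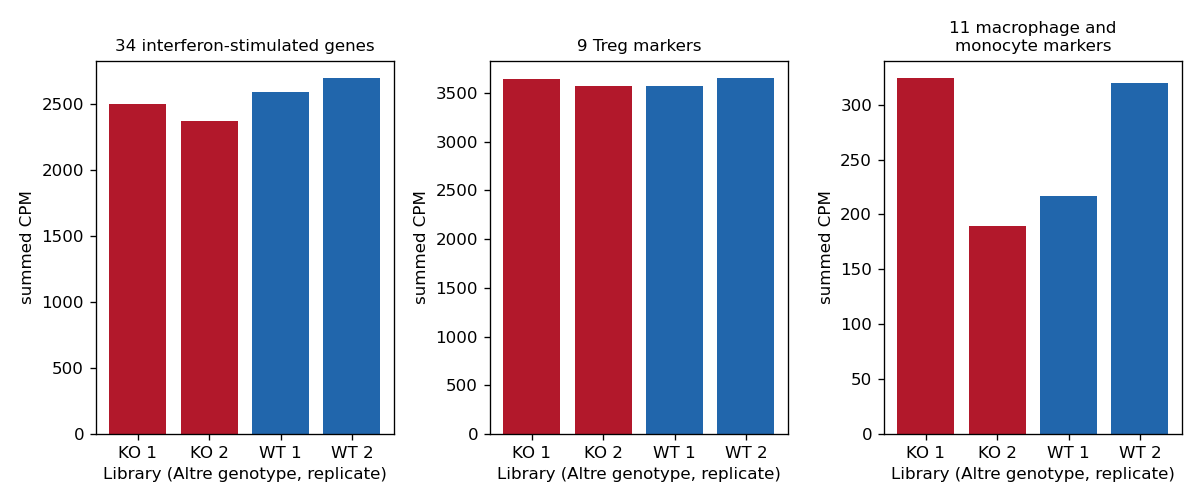
Summed CPM per library (bars, Altre-KO in red, Altre-WT in blue, no error bars as each bar is 1 library) of the 34 interferon-stimulated genes, 9 Treg markers and 11 macrophage and monocyte markers. The interferon-stimulated genes sum to 2498 and 2373 CPM in Altre-KO and 2589 and 2693 CPM in Altre-WT. The macrophage and monocyte markers sum to 323.9 and 189.7 CPM in Altre-KO and 217.1 and 319.5 CPM in Altre-WT. The part of these cells in the levels was not tested, and markers of other cell types are not drawn.

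Upstream of these genes, the ligands were close to absent. All 18 type I interferon genes were under the filter, 9 of them, Ifnb1 included, were listed at 0 in every library, and the others did not exceed 2.23 CPM. Their sums were 0.31 and 3.09 CPM in Altre-KO and 4.98 and 2.16 CPM in Altre-WT. The defining plasmacytoid dendritic cell gene Siglech, of the cell type known as a main source of interferon-alpha, was at 0 and 0.85 CPM in Altre-KO and at 3.28 and 1.26 CPM in Altre-WT. Of the 7 markers listed for that cell, Klra17 was at or under 0.42 CPM throughout. Ly6d was at 0.61 and 1.27 CPM in Altre-KO and at 2.19 and 2.52 CPM in Altre-WT. Clec10a was at 0.31 and 0.42 CPM against 0.55 and 0.84 CPM. Siglech, Ly6d and Clec10a were under the filter. Ccr9 lay higher in both Altre-KO libraries, and Tcf4 and Pacsin1 overlapped between genotypes. The summed level, mostly of Pacsin1 and Ccr9, was 78.1 and 88.5 CPM in Altre-KO and 85.3 and 86.6 CPM in Altre-WT. The part of such cells in the levels above was not tested.

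The receptor chain and its kinases were well expressed in both genotypes. Ifnar1 was at 282.0 and 263.8 CPM in Altre-KO and at 272.3 and 270.7 CPM in Altre-WT, and Ifnar2 at 116.0 and 113.0 CPM against 100.6 and 93.3 CPM (log2 fold change 0.24, limma adjusted p = 0.999). Jak1 was at 791.1 and 946.6 CPM in Altre-KO and at 982.1 and 978.5 CPM in Altre-WT (log2 fold change -0.18), and Tyk2 had a log2 fold change of -0.035. None of these 4 genes passed by limma, and none had an unadjusted p under 0.05. Of 14 genes of nucleic acid sensing and its relay, 12 were tested, 9 were lower and 3 higher, and none passed or had an unadjusted p under 0.05. The smallest p-values there belonged to Irf3 (log2 fold change 0.25), to Mb21d1, the gene of the DNA sensor cGAS (0.36), and to Dhx58, a RIG-I relative (-0.17).

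A wider list of other interferon-stimulated genes did not share the lean to lower values. Of 62 such genes 57 were listed and 49 tested, of which 25 were lower and 24 higher in Altre-KO, with a median log2 fold change of -0.022. The libraries separated downwards in 9 of the 49 (18.4%), where 16.1% of all tested genes did, and upwards in 9, where 14.7% did. None passed by limma, and at an unadjusted p under 0.05 there were 4 lower and 2 higher. Over all tested genes, 2.22% were lower and 1.44% higher at that unadjusted p. Trex1, a cytosolic DNA-degrading exonuclease gene, was at 57.9 and 57.2 CPM in Altre-KO and at 33.9 and 42.5 CPM in Altre-WT (log2 fold change 0.59). Ly6e, a surface protein gene that restricts coronaviruses, was at 339.9 and 416.6 CPM in Altre-KO and at 497.1 and 454.8 CPM in Altre-WT (-0.34). Ifitm3, which blocks virus entry at endosomes, was at 3.06 and 0 CPM in Altre-KO and at 4.92 and 6.31 CPM in Altre-WT. The difference between this list and the 32 genes was not tested.

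Brakes on the pathway and interferon-gamma response genes were also near level. The 8 negative regulators had a median log2 fold change of -0.03, with 5 lower and 3 higher, and none passed by limma or had an unadjusted p under 0.05. Irf2, a repressor of interferon-stimulated genes, had the smallest p there, at 12.6 and 36.8 CPM in Altre-KO and 32.3 and 39.1 CPM in Altre-WT, where Altre-KO replicate 1 alone was low. Ptpn11 (log2 fold change -0.20) and Socs3 (0.11) came next. Of 20 interferon-gamma response genes 17 were tested, 6 lower and 11 higher, with a median of 0.038, and 0 passed by limma or had an unadjusted p under 0.05. The guanylate-binding protein genes with the smallest p went both ways, with log2 fold changes of -0.40 for Gbp5, -0.27 for Gbp3, -0.22 for Gbp7 and 0.28 for Gbp8. Limma-voom also called 0 genes in these lists.

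**Figure D5:**
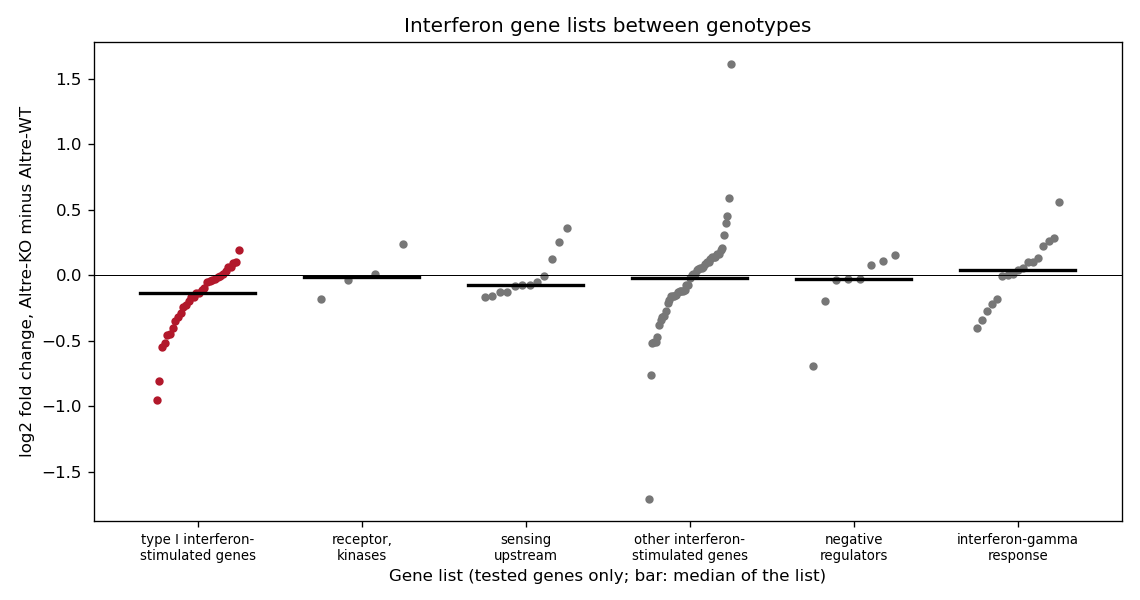
Log2 fold change (Altre-KO minus Altre-WT) of every tested gene in 6 interferon gene lists, each point a gene sorted within its list and each bar the list's median. The medians are -0.14 for the type I interferon-stimulated genes, -0.022 for the other interferon-stimulated genes and 0.038 for the interferon-gamma response.

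Among tested interferon-stimulated genes with a promoter at hand, most were lower in Altre-KO both with and without an ISRE core in the window. The share lower over all 10486 tested genes was 52.1%. The 13 genes with a match had a median log2 fold change of -0.14, with 10 lower and 3 higher, and their summed levels were 893.4 and 935.9 CPM in Altre-KO and 958.6 and 1048 CPM in Altre-WT. In 5 of these 13 (38.5%) both Altre-KO libraries lay below both Altre-WT libraries, where 16.1% of all tested genes did so. The 11 tested genes with a promoter and no match had a median of -0.041, with 8 lower and 3 higher, and the libraries separated downwards in 2 of them (18.2%). Summed with Ifi44, which has a promoter and no match but was under the filter, their levels were 803.6 and 742.4 CPM in Altre-KO and 822.1 and 782.8 CPM in Altre-WT, and overlapped. Both groups are small, and the difference between them was not tested. The 9 genes without a promoter at hand are in neither group. Among them the libraries of Rtp4, Zbp1, Parp14 and Ifi27l2a separated downwards. Those of Usp18, Mx1, Mx2 and Parp9 overlapped, and Oas2 was under the filter.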

How the data were processed

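The authors deposited 1 table of 24452 genes with 4 libraries, in 2 units. CPM columns are named so per the file headers, and their sums show that the authors scaled listed genes to a common total. Its RPM columns, a unit read from the values, are deposited with an added 0.0001. The deposited table also holds mean CPM per genotype, the authors' log2 ratio and a p-value with its FDR. No header names the test behind them. The submitters' processing notes name cutadapt, STAR, DESeq2 and build mm10 (GRCm38). Their roles and versions, the read counter and the gene models are not given.

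What 1 read is worth was estimated as the common step of the RPM values. Between 92.9% and 93.8% of values came out whole within 0.02 of a read, so values were not treated as counts. Genes with at least 2 libraries at 4.22 CPM, the level of 10 estimated reads at median depth, were tested (10486) with limma 3.58.1 (R 4.3.3, variance trend) on log2(CPM + 1), group the only term. Fold changes, Altre-KO minus Altre-WT, are on that scale, which compresses the differences of low genes. SEs draw largely on the trend over all genes (20.8 prior degrees of freedom). The fit was also run on simulated counts with a single dispersion for all genes. Its recovery is not reported here, so that run does not show what size of difference could have been missed.

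The genes and lists were chosen with earlier results of these data known. All members are named by role, with their 4 values where a role holds 5 or fewer tested genes or the gene is among the 12 smallest p-values. Other lists give the 3 smallest p-values. 1 listed gene was left out and is not reported here. Annotation is GENCODE M21, and blastn 2.17.0 searched for similar transcripts (at least 90% identity over at least 25% of the transcript). Figures were drawn with matplotlib 3.10.9. Alternatives were another scaling, filter, pseudocount or variance model, a replicate block, and leaving out each library.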

Additional observations from a re-analysis of the deposited data

How the results depend on the processing

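In the 12 alternatives, 0 interferon-stimulated genes passed the threshold (lowest adjusted p 0.644), the number lower in Altre-KO was 22 to 25 of 32 (22 without Altre-WT replicate 2), 19 of 25 with the higher filter and 26 of 34 with no filter, and their median log2 fold change was negative throughout, between -0.21 and -0.08. The sign was the same in every alternative for 15 of the 32 genes, 14 lower and 1 higher (Ifit2). Over all tested genes, 4 were called, with 2 at a pseudocount of 0.1, all lower (2), and 6 to 16 when a library was left out, of which 4 to 14 were lower. Without Altre-KO replicate 2 the number was 14, and without Altre-WT replicate 2 it was 16. With upper-quartile scaling the sign turned for Dtx3l (0.0071) and Ifi35 (0.0015), with a pseudocount of 5 for Mx2 (0.0035), and with limma-voom for Ifit3 (-0.070), Isg20 (0.047) and Ifi35 (0.013). Leaving out each library in turn, the log2 fold change ranged from -0.087 to 0.10 for Irf9, -0.37 to 0.024 for Ddx58, -0.12 to 0.25 for Ifih1, -0.35 to 0.0053 for Ddx60, -0.58 to 0.64 for Ifit3, -1.44 to 0.74 for Oasl1, -0.71 to 0.49 for Isg15, -0.076 to 0.26 for Usp18, -0.94 to 0.36 for Mx1 and -0.52 to 0.46 for Mx2. It ranged from -0.10 to 0.30 for Cmpk2, -0.51 to 0.43 for Isg20, -0.41 to 0.53 for Bst2, -0.21 to 0.11 for Trim30a, -0.085 to 0.065 for Dtx3l, -0.22 to 0.19 for Ifi35 and -0.37 to 0.17 for Xaf1. The cause was not tested. With a library left out, the lone library of a genotype is assumed to vary like the other group. The replicate block gave 6 called genes and 0 of the 32. Same-numbered libraries share only a number: their deviations correlated at -0.01 across genes. With 2 libraries per genotype, even Parp14, on 614 to 1067 estimated reads, had a 95% interval from -0.35 to 0.26.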
